A study of Mus musculus with 9 samples.

Results

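Cathepsins are proteases that mostly work in the acid interior of endosomes and lysosomes, where they break down proteins taken up from outside the cell or delivered from its own cytoplasm. They are made as inactive precursors, are sorted to the lysosome and are cut there into active enzymes, and cystatins, stefins and related proteins inhibit those that escape. In the brain, microglia and other macrophages are rich in them, and in antigen-presenting cells cathepsins trim the invariant chain of MHC class II molecules. Expression of 10 cathepsin genes was examined in mouse brain after an intracerebral injection of lipopolysaccharide (LPS), a component of the bacterial cell wall that sets off an innate immune reaction. The genes were *Ctsa*, *Ctsb*, *Ctsc*, *Ctsd*, *Ctsh*, *Ctsk*, *Ctsl*, *Ctso*, *Ctss* and *Ctsz*, which are 10 of the 17097 genes that the arrays could name. They were chosen by symbol with earlier results of these data known. The study had already placed *Ctsa*, *Ctsb*, *Ctsh*, *Ctss* and *Ctsz* in a cluster of genes with similar expression on the same arrays. It described this cluster as raised rather selectively at the later time after LPS. Any rise of these genes from the earlier to the later time is therefore not independent of that grouping. A gene with several probe sets was represented by the one with the highest mean over all arrays.

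Adult male C57Bl/6J mice of 10 to 12 weeks received PBS or LPS into the striatum by stereotaxic injection, and after saline perfusion RNA was taken from a block of the injected hemisphere around the site. The 3 groups were PBS at 4 d, LPS at 1 d and LPS at 4 d, with 3 arrays in each, and every array measured RNA pooled from 3 mice, so that differences between single mice were not seen. There was no PBS array at 1 d, and both LPS groups were therefore compared to the same 3 PBS arrays collected at 4 d. All mice were wild type, and every group had undergone the injection itself. The deposited values are log2 expression values that lay at a median of 4.32 to 4.37 on each array, and any 2 arrays correlated with r of at least 0.98 over all probe sets. Background was set at a log2 value of 3.49, the highest mean among 23 nonspecific control probe sets. The 4 analysed striatal markers (*Drd1*, *Drd2*, *Ppp1r1b* and *Rgs9*) were above background in all groups.

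By the call used throughout, an adjusted p under 0.05 over all probe sets in limma and a fold change of at least 1.5, 8 of the 10 cathepsins were higher at 4 d after LPS than after PBS. Over all genes, 4.21% were higher by the same call at that time. Because the 10 genes were chosen with earlier results known, this and the following comparisons with all genes are descriptive. None of the 13 other cathepsin genes on the arrays passed, of which 12 were at background in every group. At 1 d, *Ctsc*, *Ctsh* and *Ctsz* passed as higher, 3 of the 10 cathepsins compared to 3.86% of all genes, and these 3 were called at both times, as were 2.48% of all genes. In the direct comparison of the LPS groups, *Ctsa*, *Ctsd*, *Ctsh*, *Ctss* and *Ctsz* exceeded their 1 d level at 4 d, 5 of the 10 compared to 1.84% of all genes. Every cathepsin that passed a comparison passed it as higher. All 3 arrays of the later or treated group lay above all 3 of the other for 7 cathepsins at 1 d (11.5% of all genes), for 8 at 4 d (12% of all genes) and for 8 between the LPS groups (11.4% of all genes). Over the 10 genes, the median of the log2 changes compared to PBS was 0.34 at 1 d and 1.15 at 4 d, and that of the changes from 1 d to 4 d was 0.52, whereas the median of all genes was -0.03, -0.02 and 0.00. Since the tissue was homogenised whole, more cells of a type that expresses a cathepsin and more of its RNA per cell cannot be told apart.

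**Figure D1:**
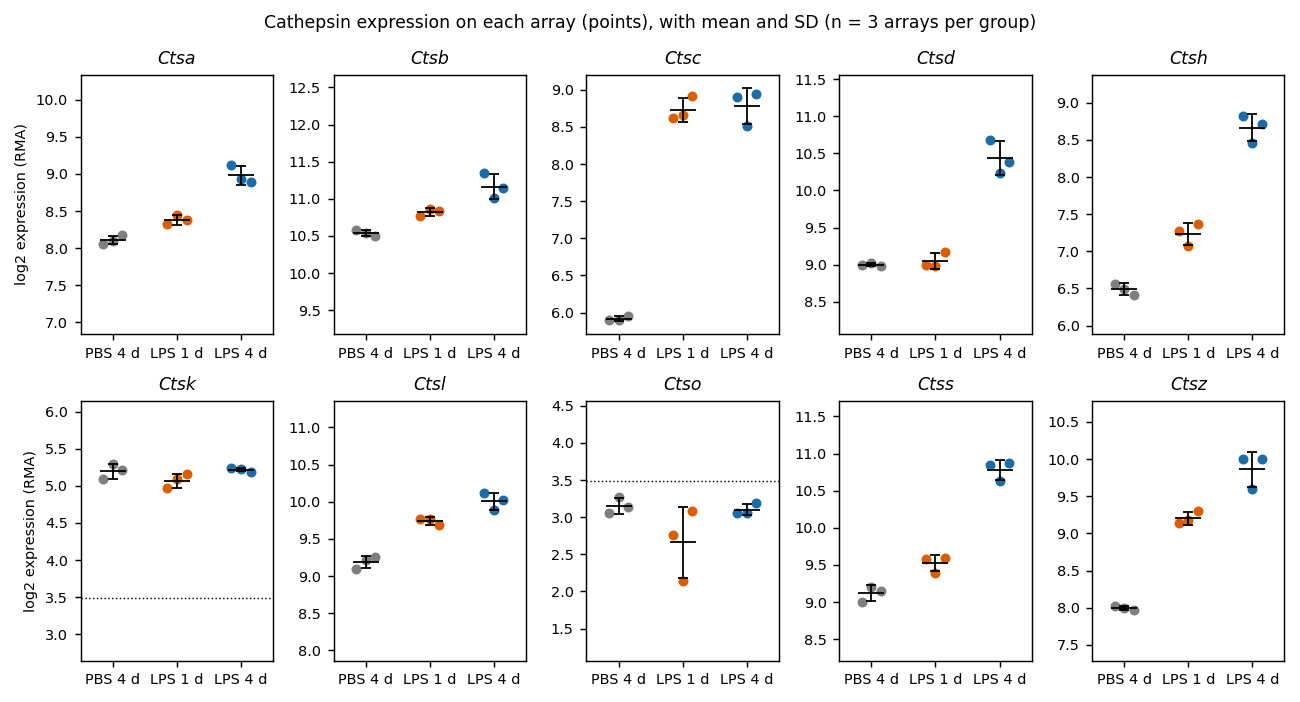
Log2 expression (RMA, vertical axis, each panel spanning its own part of the scale over the same number of log2 units) of the 10 cathepsins on each array, for PBS at 4 d (grey), LPS at 1 d (orange) and LPS at 4 d (blue). Points are arrays, the long bar is the mean and the error bar the SD (n = 3), and the dotted line is the background of 3.49. On the probe set used for it, *Ctsc* is already at its 4 d level at 1 d. *Ctsd* is separated from PBS only at 4 d, and *Ctsk* and *Ctso* overlap between PBS and both LPS groups.

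*Ctsc* encodes cathepsin C, or dipeptidyl peptidase I, which removes pairs of residues from the amino end of proteins and activates the serine proteases stored in granules of neutrophils, mast cells and cytotoxic lymphocytes. Its log2 value was 5.90, 5.90 and 5.96 on the PBS arrays, 8.62, 8.65 and 8.91 on the LPS 1 d arrays and 8.91, 8.51 and 8.94 on the LPS 4 d arrays. All arrays after LPS lay far above all PBS arrays, while the LPS arrays of the 2 times overlapped. The log2 change compared to PBS was 2.81 at 1 d (standard error 0.13, adjusted p = 7.09e-06, 7.02-fold) and 2.86 at 4 d (standard error 0.13, adjusted p = 7.09e-06, 7.28-fold). From 1 d to 4 d it was 0.05, with a 95% interval of -0.24 to 0.34 (adjusted p = 0.910).

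*Ctsh* encodes cathepsin H, which acts mainly as an aminopeptidase. It measured 6.56, 6.50 and 6.41 after PBS, 7.27, 7.07 and 7.37 at 1 d and 8.82, 8.46 and 8.72 at 4 d, in log2 units. The 3 groups did not overlap, and each step was upward. Compared to PBS, the log2 rise at 1 d was 0.74 (standard error 0.12, adjusted p = 0.0067, 1.67-fold) and that at 4 d was 2.18 (standard error 0.12, adjusted p = 1.27e-05, 4.52-fold), and the 4 d arrays exceeded the 1 d arrays by 1.43 (adjusted p = 0.000472).

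*Ctsz* encodes cathepsin Z, also named cathepsin X, a carboxypeptidase that removes single residues. Its log2 values were 8.03, 8.0 and 7.97 after PBS, 9.13, 9.18 and 9.31 at 1 d and 10.00, 9.59 and 10.00 at 4 d. Again no groups overlapped, although replicate 2 of the 4 d group stood closer to the 1 d arrays than the other 4 d arrays did. On the log2 scale, the 1 d arrays exceeded PBS by 1.21 (standard error 0.12, adjusted p = 0.000344, 2.31-fold) and the 4 d arrays by 1.87 (standard error 0.12, adjusted p = 3.33e-05, 3.64-fold). The difference between the times was 0.66 (standard error 0.12, adjusted p = 0.0204). It did not pass when replicate 1 (0.62, adjusted p = 0.0716) or replicate 2 (0.64, adjusted p = 0.0833) of the 1 d group was omitted, nor when replicate 1 (0.59, adjusted p = 0.076) or replicate 3 (0.59, adjusted p = 0.0761) of the 4 d group was. The 3 genes called higher at 1 d were thus the 3 cysteine cathepsins whose enzymes act mainly on the ends of proteins, a grouping made after the values were seen. It depends on the fold threshold. *Ctsl*, whose enzyme cuts within proteins, was also above PBS on all 1 d arrays (adjusted p = 0.00701 in limma) but at 1.47-fold.

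*Ctss*, *Ctsl* and *Ctsb* encode cysteine cathepsins that cut within proteins, of which cathepsin B also removes pairs of residues from the carboxyl end. Cathepsin S keeps its activity near neutral pH and is the main enzyme of the last steps of invariant chain processing in many antigen-presenting cells. *Ctss* had log2 values of 9.01, 9.21 and 9.16 after PBS, 9.58, 9.40 and 9.60 at 1 d and 10.85, 10.63 and 10.87 at 4 d. All 1 d arrays were above all PBS arrays, but the log2 change of 0.40 did not pass the test (standard error 0.10, adjusted p = 0.0708). At 4 d it was 1.66 compared to PBS (standard error 0.10, adjusted p = 2.82e-05, 3.16-fold) and 1.26 compared to 1 d (adjusted p = 0.000472).

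*Ctsl* measured 9.09, 9.21 and 9.26 after PBS, 9.77, 9.77 and 9.69 at 1 d and 10.11, 9.89 and 10.03 at 4 d. The groups were separated at both steps. At 1 d its log2 change of 0.55 had an adjusted p of 0.00701 but was 1.47-fold, just under the fold required, and without PBS replicate 3 it passed (0.59). At 4 d the log2 rise was 0.82 compared to PBS (standard error 0.09, adjusted p = 0.000736, 1.76-fold). The further 0.26 from 1 d to 4 d did not pass (95% interval 0.07 to 0.46, adjusted p = 0.217).

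For *Ctsb* the log2 values were 10.58, 10.53 and 10.50 after PBS, 10.76, 10.87 and 10.83 at 1 d and 11.35, 11.01 and 11.14 at 4 d. They were in the order PBS, 1 d, 4 d with no overlap, over a narrow range. The log2 change was 0.28 at 1 d (adjusted p = 0.188) and 0.62 at 4 d (standard error 0.10, adjusted p = 0.00676, 1.54-fold), with 0.34 between the times (95% interval 0.13 to 0.56, adjusted p = 0.133). The call at 4 d stood close to the threshold, and without LPS 4 d replicate 1 the change was 0.53, under 1.5-fold.

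*Ctsd* encodes cathepsin D, the main aspartic endopeptidase of the lysosome, whose loss causes a neuronal storage disease. Its log2 value was 9.00, 9.03 and 8.98 on the PBS arrays and 8.99, 8.98 and 9.18 on the 1 d arrays, and 10.68, 10.24 and 10.38 on the 4 d arrays. PBS and 1 d overlapped, while all 4 d arrays were higher than both. The log2 change at 1 d was 0.05, with a 95% interval of -0.22 to 0.31 (adjusted p = 0.889) that ends below the change of 0.58 corresponding to 1.5-fold. At 4 d the rise was 1.43 compared to PBS (standard error 0.12, adjusted p = 0.000152, 2.70-fold) and 1.39 compared to 1 d (adjusted p = 0.00052, 2.61-fold). Of all genes, 0.895% shared this combination, higher at 4 d than in both other groups without a call at 1 d, and of the cathepsins *Ctsa*, *Ctsd* and *Ctss* did.

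*Ctsa* encodes a serine carboxypeptidase that also holds beta-galactosidase and neuraminidase together in a complex and protects them from degradation. It measured 8.06, 8.09 and 8.17 after PBS, 8.32, 8.44 and 8.37 at 1 d and 9.13, 8.93 and 8.89 at 4 d. No groups overlapped, with the larger step between 1 d and 4 d. The log2 change was 0.27 at 1 d (standard error 0.09, adjusted p = 0.161), 0.87 at 4 d (standard error 0.09, adjusted p = 0.000535, 1.83-fold) and 0.60 between the times (adjusted p = 0.00748, 1.52-fold). The last was near the fold threshold and fell under it when replicate 1 of the 1 d group (0.57) or of the 4 d group (0.53) was omitted. With the mean of both *Ctsa* probe sets it was 0.26 and did not pass (adjusted p = 0.155).

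The remaining 2 genes did not pass any comparison. *Ctsk*, whose enzyme degrades collagen in bone resorbed by osteoclasts, had log2 values of 5.09, 5.29 and 5.21 after PBS, 4.97, 5.09 and 5.15 at 1 d and 5.24, 5.23 and 5.19 at 4 d. The PBS arrays overlapped both LPS groups, while the 4 d arrays were all above the 1 d arrays. The log2 change was -0.13 at 1 d (95% interval -0.32 to 0.07) and 0.02 at 4 d (95% interval -0.17 to 0.22), and both intervals stayed within 1.5-fold. *Ctso* lay below background in all groups, at 2.14 to 3.27 on the 9 arrays, so that its probe set set no level for the gene. The moderated F-test over the 3 groups passed for the other 8 cathepsins (adjusted p of 7.12e-06 for *Ctsc* to 0.0127 for *Ctsb*), and for 7.67% of all genes.

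**Figure D2:**
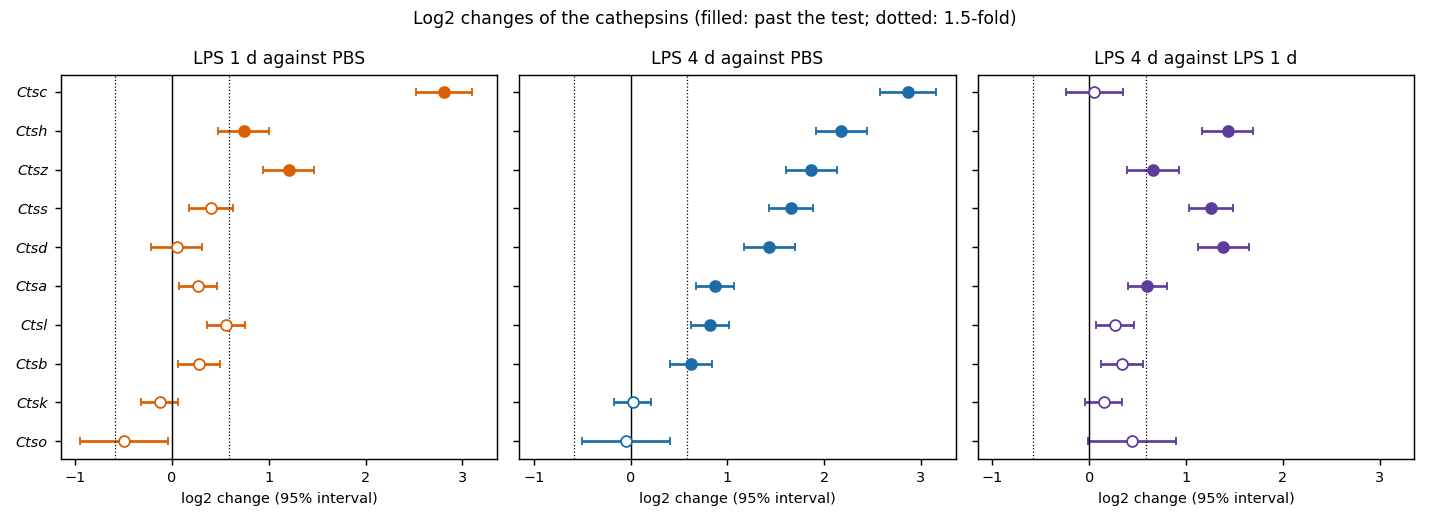
Log2 change of each cathepsin (horizontal axis) for LPS at 1 d against PBS (left), LPS at 4 d against PBS (middle) and LPS at 4 d against 1 d (right), with 95% intervals from limma over 3 arrays per group. Filled points passed the test and dotted lines mark 1.5-fold; *Ctsc* has the largest change in both comparisons with PBS but lies at 0.05 between the times, where *Ctsh*, *Ctsd* and *Ctss* are above 1.2.

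Within a group, single arrays were the highest or the lowest for most of the cathepsins. LPS 4 d replicate 2 had the lowest value of its group for 7 of the 10 genes and replicate 1 the highest for 7, and LPS 1 d replicate 3 was the highest of its group for 7. In the PBS group no array was highest for more than 4. Omitting LPS 4 d replicate 1 left 7 cathepsins called at 4 d, and the changes between the times passed for 3 (*Ctsd*, *Ctsh* and *Ctss*) in its absence and also in that of LPS 1 d replicate 1.

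The arrays carried 19 probe sets annotated to a single one of these genes, and where several measured the same gene they did not always give the same change. All 3 probe sets of *Ctsz* were higher at both times, with log2 changes of 1.15 to 1.21 at 1 d and 1.73 to 1.87 at 4 d. For *Ctsb*, which had 4 probe sets, another gave 0.67 at 4 d (adjusted p = 0.004) and the next 0.44 (adjusted p = 0.107), while the last, at a mean level of 7.37 after PBS and well above background, gave 0.0017 (adjusted p = 0.996). The other 2 probe sets of *Ctsc* lay below background after PBS (3.06 and 2.76). Of these the first was called higher at 4 d than after PBS, at a mean of 4.48 (adjusted p = 0.00749 in limma). The size of that change has only a lower bound. Unlike the probe set used for *Ctsc*, it also rose from 1 d, where its mean was 3.63, by 0.85. All its 4 d arrays were above its 1 d arrays, but this step did not pass (adjusted p = 0.107 in limma). The second probe sets of *Ctsa* and *Ctsl*, at 3.27 and 3.45 after PBS, were below background there and did not pass. When the mean of all probe sets of a gene was used instead, 5 cathepsins were called at 4 d and *Ctsa*, *Ctsb* and *Ctsl* fell below 1.5-fold. With its 2 dim probe sets in that mean, the change of *Ctsc* became 1.26 at 1 d and 1.67 at 4 d.

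**Figure D3:**
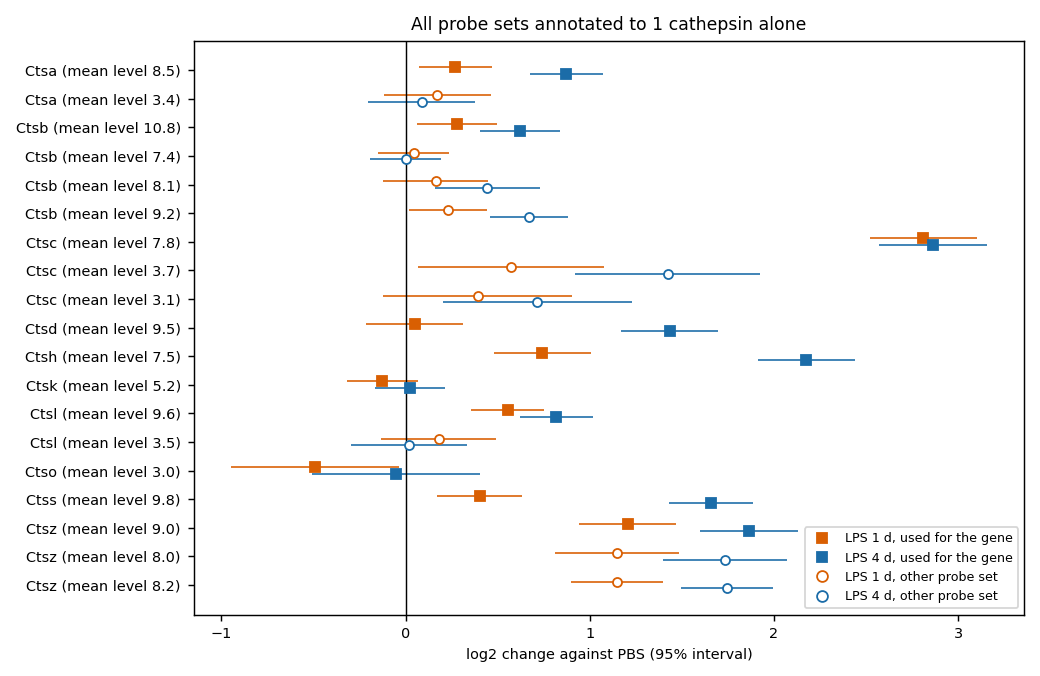
Log2 change against PBS with 95% interval (horizontal axis) of all 19 probe sets annotated to 1 cathepsin alone, at 1 d (orange) and 4 d (blue), each row labelled with its mean level over the 9 arrays. Filled squares are the probe sets that represent the gene and open circles the others; the 3 rows of *Ctsz* lie together, while 1 *Ctsb* row at a level of 7.4 stays at 0 and the rows of *Ctsa* and *Ctsl* near background do not follow the brighter ones.

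*Ctsk* and *Ctss* are neighbours on chromosome 3, separated by 17.4 kb in GRCm38.p6, with *Ctss* rising 3.16-fold at 4 d and *Ctsk* at 1.02-fold. The sequence before the start of these 2 genes is shown because they lie side by side and differed in response, together with that of *Ctsd*, the cathepsin separated from PBS only at 4 d. The windows are the 250 bases upstream of the annotated start in RefSeq (GRCm38.p6), at chr3:95526536-95526785 on the plus strand for *Ctss*, chr3:95498960-95499209 on the plus strand for *Ctsk* and chr7:142387828-142388077 on the minus strand for *Ctsd*, printed 5′ to 3′ in the direction of the gene, with matches to searched motifs in capitals.
Ctss: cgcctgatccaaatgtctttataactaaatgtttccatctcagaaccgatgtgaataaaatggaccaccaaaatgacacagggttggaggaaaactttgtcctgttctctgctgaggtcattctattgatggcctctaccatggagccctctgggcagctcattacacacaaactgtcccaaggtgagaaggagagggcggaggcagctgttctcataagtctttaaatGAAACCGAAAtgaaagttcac
Ctsk: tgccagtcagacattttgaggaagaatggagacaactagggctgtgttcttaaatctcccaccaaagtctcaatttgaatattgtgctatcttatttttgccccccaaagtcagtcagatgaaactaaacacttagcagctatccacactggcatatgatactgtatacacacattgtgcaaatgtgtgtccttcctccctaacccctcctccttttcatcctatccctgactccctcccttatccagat
Ctsd: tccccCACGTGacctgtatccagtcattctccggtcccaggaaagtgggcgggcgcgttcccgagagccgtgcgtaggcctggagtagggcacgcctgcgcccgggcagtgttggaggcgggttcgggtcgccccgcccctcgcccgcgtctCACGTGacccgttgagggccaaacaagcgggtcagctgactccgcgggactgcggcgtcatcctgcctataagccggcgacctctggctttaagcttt

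The capitals in the *Ctss* sequence mark the letters of an interferon-stimulated response element (GAAA, any 2 bases, GAAA), 21 bases before the start. Of 32851 mouse promoter windows of the same length, 2.98% held these letters on either strand. The capitals in the *Ctsd* sequence mark CACGTG, the core of the element by which the factor TFEB and its relatives bind lysosomal genes, which occurs there at 245 and 98 bases before the start and is found in 6.02% of all windows. The longer palindrome with GT before that core and AC after it was in 0.24% of all windows and in none of the cathepsins'. The *Ctsk* window held none of the letters searched. Windows were given for 8 of the 10 genes (9 windows, since *Ctsa* had 2), with *Ctsb* and *Ctsh* missing, and CACGTG was also found in windows of *Ctsa* and *Ctsl*. GAGGAAGT, the letters of a site for the macrophage factor PU.1 and its relatives (2.44% of all windows), and TTCNNNGAA, those of a gamma-activated site for STAT proteins (7.02%), were each found for *Ctsc*. These matches describe the letters of the windows and were not tested against the expression changes. The *Ctsd* window had a GC content of 67.2% and 27 CpG dinucleotides, compared to a median of 52.0% and 6 over all windows, and the *Ctsk* window had 43.2% and 0.

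None of the 13 other cathepsin genes on the arrays passed any comparison in limma, and 12 of them, which include the neutrophil protease gene *Ctsg* and the placental cathepsins, were at background in every group. At an unadjusted p under 0.05, 2 of the 13 differed from PBS at 1 d and 1 at 4 d, and 2 differed between the LPS groups. The exception to the low levels was *Ctsf*, another cysteine cathepsin gene, singled out here after its values were seen. Its log2 values were 7.63, 7.62 and 7.67 after PBS, 7.49, 7.41 and 7.33 at 1 d and 7.61, 7.53 and 7.55 at 4 d. The 1 d arrays were all lower than the PBS arrays without passing the test (adjusted p = 0.163).

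Of the genes listed as inhibitors of cathepsins, 11 could be analysed. At 1 d 3 of them were higher and 1 was lower, and all 4 that passed at 4 d were higher. The 1 lower at 1 d was *Serpinb1a*, whose product inhibits neutrophil serine proteases. From 1 d to 4 d, 2 of the 11 were lower. Over all genes, the share lower was 0.532% at 1 d, 0.205% at 4 d and 1.37% from 1 d to 4 d. *Cst7* encodes cystatin F, an inhibitor of cathepsin C that is made in immune cells. It was below background after PBS (3.19, 3.01 and 2.46), measured 3.56, 3.79 and 3.72 at 1 d and reached 5.37, 3.97 and 5.26 at 4 d, with replicate 2 far below the others. Against the background level, its expression at 4 d was at least 2.60-fold higher (adjusted p = 0.0127). It no longer passed without LPS 4 d replicate 1 (adjusted p = 0.0517), LPS 4 d replicate 3 (adjusted p = 0.0528) or PBS replicate 3 (adjusted p = 0.0542).

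*Cstb*, which encodes the cytosolic inhibitor cystatin B, had log2 changes of 0.57 at 1 d (1.49-fold, under the threshold) and 0.75 at 4 d, of which the second passed (adjusted p = 0.0033). *Cst3*, the gene of the secreted inhibitor cystatin C, measured 11.35 to 11.50 after PBS, 11.12 to 11.26 at 1 d and 11.34 to 11.57 at 4 d and did not pass. *Ctla2a* and *Ctla2b* encode small proteins that resemble the propeptide of cysteine cathepsins and inhibit them, and since the 2 genes are closely similar copies, their probe sets may not tell them apart. On the log2 scale, *Ctla2a* exceeded PBS by 2.79 at 1 d and 1.83 at 4 d, and decreased by 0.96 from 1 d to 4 d (adjusted p = 0.0131). *Ctla2b*, below background after PBS, was at least 5.29-fold higher at 1 d and at least 4.44-fold higher at 4 d.

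*Stfa2l1*, of the stefin A family of inhibitors, had a mean above background only at 1 d, when its arrays measured 3.42, 5.36 and 4.68 and replicate 1 was itself below background. It exceeded the other groups by at least 0.997 on the log2 scale (adjusted p = 0.0178 against PBS), with the least difference on replicate 1, and the comparison with PBS did not pass without PBS replicate 1 or 3 or LPS 1 d replicate 3 (adjusted p = 0.0683 to 0.0735). *Ctla2a* and *Stfa2l1* were the 2 inhibitor genes called lower from 1 d to 4 d, and neither passed in the absence of LPS 1 d replicate 3 (adjusted p = 0.0524 and 0.085). *Stfa2l1* also failed there without any single 4 d array (adjusted p = 0.0621 to 0.0832). *Serpinb1a*, the inhibitor gene called lower at 1 d, fell by 1.32 at that time (adjusted p = 0.00272), from 6.22 to 6.46 after PBS to 4.59 to 5.36.

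Of 8 genes for proteases that cathepsin C activates or that process cathepsins, none was called at 1 d (1 at an unadjusted p under 0.05) and 2 were higher at 4 d. *Lgmn* encodes legumain, the endopeptidase that cuts single-chain cathepsins into their 2-chain forms. It had log2 values of 8.32, 8.36 and 8.42 after PBS, 8.67, 8.45 and 8.65 at 1 d and 9.50, 9.21 and 9.36 at 4 d. The 4 d arrays were above all others, by 0.99 compared to PBS (standard error 0.10, adjusted p = 0.000528) and 0.77 compared to 1 d (adjusted p = 0.00391), whereas the 0.22 at 1 d did not pass (adjusted p = 0.325). The other was *Gzma*, the gene of the lymphocyte protease granzyme A, whose group means were at or below background at every time. *Elane*, *Gzmb*, *Gzmk* and *Cma1*, whose products cathepsin C also activates, were likewise at background in all groups.

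Among 6 genes listed for sorting of lysosomal enzymes, 1 passed at each time and the others passed no comparison. The 1 was *Grn*, which encodes progranulin, a secreted and lysosomal protein from which granulins are cut, rather than a sorting receptor or enzyme. Compared to PBS its log2 change was 0.76 at 1 d (adjusted p = 0.0084) and 1.84 at 4 d (adjusted p = 4.93e-05), and the step from 1 d to 4 d was 1.08 (adjusted p = 0.00225). *M6pr*, the gene of the cation-dependent mannose 6-phosphate receptor that carries lysosomal enzymes from the Golgi, measured 0.28 at 1 d and 0.27 at 4 d and did not pass. *Glb1*, whose enzyme beta-galactosidase binds cathepsin A, had changes of -0.05 and 0.18 and did not pass either, at times when *Ctsa* measured 0.27 and 0.87. The other receptor gene *Igf2r* and the neuraminidase gene *Neu1* were not analysed here. None of 4 genes for the factors that bind CACGTG in lysosomal promoters (*Tfeb*, *Tfe3*, *Tfec* and *Mitf*) was called by limma at any time, and 2 at 1 d and 3 at 4 d had an unadjusted p under 0.05.

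Cathepsins S and L help to load MHC class II molecules with peptide. Of 8 genes of the class II pathway, 3 were higher at 1 d (*Cd74*, *H2-Aa* and *Ifi30*) and 6 at 4 d. Among the 6, *H2-DMb1* was below background after PBS and at least 1.16-fold higher at 4 d. *H2-DMa* changed by -0.49 at 1 d and 0.06 at 4 d and did not pass, and *Ciita* was at background in all groups. *Cd74*, the gene of the invariant chain, measured 3.56, 3.83 and 3.55 after PBS, 4.38, 4.37 and 4.46 at 1 d and 5.43, 5.37 and 5.96 at 4 d. The groups did not overlap, and the log2 change was 0.76 at 1 d (adjusted p = 0.0285) and 1.94 at 4 d (adjusted p = 0.000137), with a further step of 1.18 from 1 d to 4 d (adjusted p = 0.00435). The call at 1 d was lost without any one of PBS replicate 1, PBS replicate 3 or the LPS 1 d arrays (adjusted p = 0.0758 to 0.106). That of *H2-Aa*, which encodes a class II alpha chain and measured 0.70 at 1 d, was lost without PBS replicate 1 or 2 or LPS 1 d replicate 2 or 3 (adjusted p = 0.0606 to 0.0846). *Ctss* over the same groups measured 0.40, 1.66 and 1.26, of which the first did not pass. *Ifi30*, the gene of a thiol reductase that opens disulfide bonds in endocytosed proteins, rose by 2.10 at 1 d and 3.37 at 4 d, and *H2-Eb1*, a class II beta chain gene, by 2.44 at 4 d after a change of 0.12 at 1 d that did not pass.

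Of 22 genes for other lysosomal hydrolases and membrane proteins, 3 passed as higher at 1 d and 8 at 4 d, with a median log2 change of 0.08 and 0.40, beside 3 and 8 of the 10 cathepsins with medians of 0.34 and 1.15. The difference between the 2 lists was not tested. *Cd68*, a lysosomal membrane glycoprotein gene of macrophages, rose by 2.26 at 4 d (adjusted p = 4.58e-05), and *Hexa* and *Man2b1*, which encode enzymes that remove sugars, by 1.00 and 0.95. At 1 d, *Hexa* and *Man2b1* measured -0.12 and -0.10 and did not pass. *Gusb*, the beta-glucuronidase gene, was higher at both times (1.07 and 1.80). The other 2 genes called at 1 d were *Cd68* (0.78), which did not pass without any single PBS array or LPS 1 d replicate 1 or 3 (adjusted p = 0.058 to 0.0824), and *Lamp2*, a lysosomal membrane protein gene (0.74), which did not pass without PBS replicate 2 or LPS 1 d replicate 2 (adjusted p = 0.0534 and 0.0524). *Lamp2* at 4 d (0.71) did not pass without PBS replicate 1 or 2 or LPS 4 d replicate 1 (adjusted p = 0.0525 to 0.0596). The genes of the proton pump, *Atp6v0d1* and *Atp6v1h*, measured -0.06 and 0.04 at 4 d and did not pass.

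**Figure D4:**
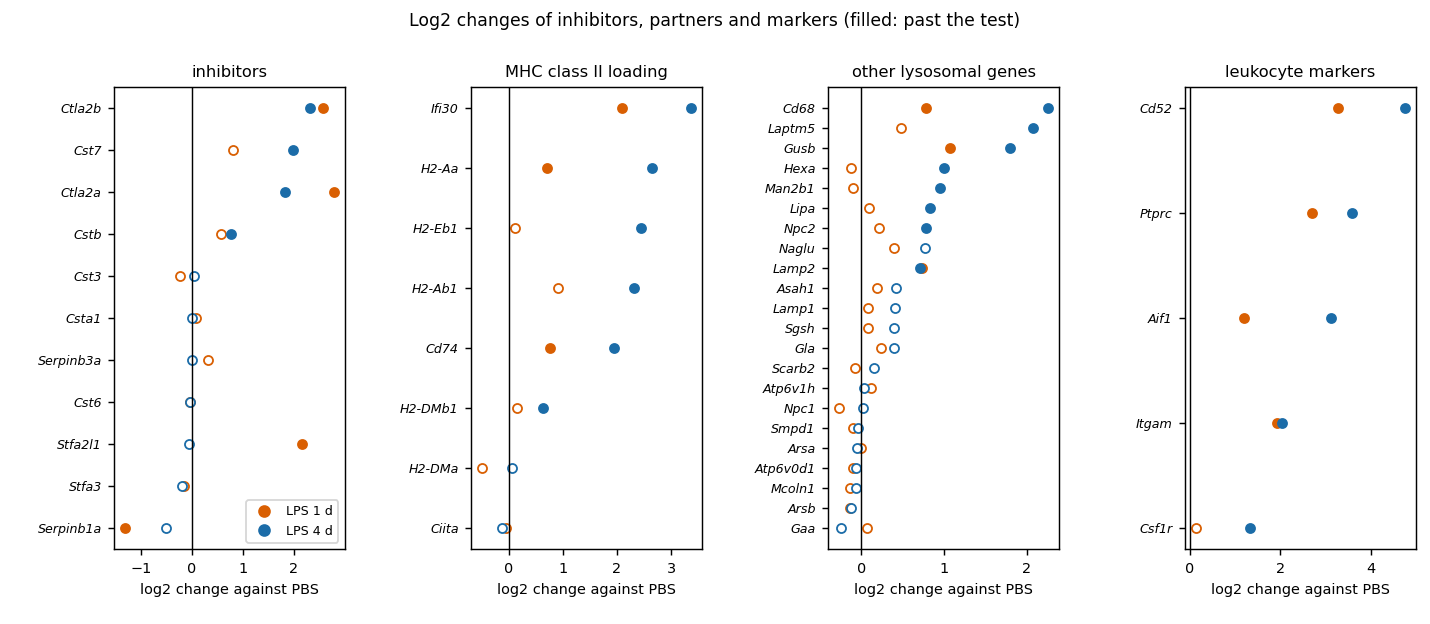
Log2 change against PBS (horizontal axis) at 1 d (orange) and 4 d (blue) of the analysed genes for cathepsin inhibitors, MHC class II loading, other lysosomal proteins and leukocyte markers, with filled points past the test. The inhibitors *Ctla2a* and *Stfa2l1* are higher at 1 d than at 4 d, whereas most class II and lysosomal genes that passed lie further right at 4 d; genes below background after PBS (*Cst7*, *Ctla2b*, *Stfa2l1*, *H2-DMb1*) have only a lower bound, which the points do not show.

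Markers of the cells that could carry these transcripts changed with the groups, and their part in the cathepsin changes was not tested. At 1 d 4 of 5 leukocyte markers had passed as higher and at 4 d all 5 had, and their summed level on the linear scale was 247 to 261 on the PBS arrays, 872 to 967 at 1 d and 1886 to 2598 at 4 d. None was at background. *Ptprc*, which encodes CD45, had a log2 change of 2.70 at 1 d and 3.58 at 4 d, and *Csf1r*, the receptor gene of macrophages, 0.14 at 1 d, which did not pass, and 1.32 at 4 d. The summed level of 8 microglial markers was 774 to 807 after PBS, 478 to 725 at 1 d and 1633 to 1862 at 4 d. None was at background in all groups. At 1 d 3 of the 8 were lower, *P2ry12*, *P2ry13* and *Gpr34*. Against PBS these measured -0.47, -0.13 and -0.13 at 4 d and did not pass. The 4 higher at 4 d were *Tmem119*, *Olfml3*, *Fcrls* and *Cx3cr1*, so that the sum joined genes that moved differently. The study measured CD45 on microglia as well, so the leukocyte list does not leave them out. How the changes of *Ctsd* and *Ctss* at 1 d (0.05 and 0.40, which did not pass) relate to either sum was not tested.

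Neutrophil markers were higher at 1 d in 6 of 9 cases and summed to 1597 to 4389 at that time, compared to 83.8 to 163 after PBS and 235 to 445 at 4 d. None of the 9 passed against PBS at 4 d (2 at an unadjusted p under 0.05), and *Camp* was at background in all groups. The 10 monocyte and recruited macrophage markers included 6 higher and 1 lower (*Mrc1*, the mannose receptor gene, -0.80) at 1 d and 7 higher at 4 d. From 1 d to 4 d, 3 were higher and 2 lower (*Plac8*, -2.37, and *Chil3*, -3.09). Their sums were 131 to 154, 934 to 1028 and 1250 to 1692 in the 3 groups. *Cd163* and *Lyve1* were at background throughout. *Ccr2* was at background after PBS and at 1 d. Its log2 changes against PBS, 0.17 at 1 d and 0.42 at 4 d, did not pass. Of 9 markers of T, NK and B cells, 8 were at background in all groups and 1 was called higher at 4 d, the sums being 68.6 to 72.3, 60.2 to 67.1 and 64.7 to 72.6. The 5 neuronal markers did not pass in limma at either time (0 at an unadjusted p under 0.05), with sums of 10991 to 11228, 11140 to 11398 and 10285 to 10743.

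Glial, vascular and connective tissue markers moved as well. Of 6 astrocyte markers, *Gfap* and *Aqp4* were higher at each time, *Gfap* by 2.83 and 2.5 on the log2 scale, and the sums were 2022 to 2191 after PBS, 2650 to 2753 at 1 d and 3142 to 3660 at 4 d. The 5 markers of fibroblasts and meninges, with 2 higher at 1 d and 3 at 4 d, summed to 195 to 207, 591 to 958 and 466 to 511, and *Pdgfra* was at background in all groups. Of 5 endothelial markers, 1 was lower at 1 d, 1 was higher at 4 d and 3 were higher at 4 d than at 1 d, with sums of 735 to 795, 547 to 629 and 930 to 1119. The 5 oligodendrocyte markers included 1 lower at 1 d (*Opalin*, -1.15), which was higher at 4 d than at 1 d, and summed to 5508 to 5630, 4835 to 5147 and 4885 to 5489. The part of these cells in the cathepsin changes was not tested either.

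The genes whose values ran most closely with each cathepsin over the 9 arrays differed between the cathepsins, as a description of arrays that share 3 groups and not as a test. *Ctsc* ran with *Ms4a6c* (r = 0.996), *Cybb*, the gene of the large subunit of the phagocyte NADPH oxidase, and *Ccl9*, a chemokine gene. *Ctsz* ran with *C3ar1*, the receptor gene of complement C3a (r = 0.997), *Sat1* and *Slc7a7*. *Ctsl* ran with *Cyba* (r = 0.993), *Clec7a*, which encodes dectin-1, and *Runx1*. For *Ctss*, *Ctsh* and *Ctsd* the nearest genes included macrophage and lysosomal ones. They were *Ms4a7*, *Laptm5* and *Lgmn* for *Ctss* (r = 0.996 for the first), *Cd68*, the complement gene *C1qc* and the scavenger receptor gene *Stab1* for *Ctsh* (r = 0.995), and *Lipa*, *Csf1r* and *Hexa* for *Ctsd* (r = 0.991). *Ctsa* ran with the class II gene *H2-Aa* (r = 0.986), *Mpeg1* and *Tbxas1*, and *Ctsb* with *Cyp4v3* (r = 0.987), *Smc4* and *Plod1*. *Ctsk*, which overlapped between PBS and both LPS groups, had *Sema6d* (r = 0.955), *Prkg1* and *Fam114a2* nearest, and *Ctso*, at background, had *Zdhhc23* (r = 0.983), *Nudt1* and *Cadm1*.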

How the data were processed

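RNA pools of brain tissue around the injection site were measured on 9 Affymetrix HT MG-430 PM arrays in 3 groups of 3. Each deposited value is the log2 expression of 1 probe set, which the authors computed with RMA in Affymetrix Expression Console (background correction, normalization between arrays, summary over probes; version not given in the sources used here). RMA can compress differences of dim probe sets, and the scanner output was not used here. Per the labels, samples were grouped by injection and time. Slides and scan dates of the arrays were not known.

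After 104 control entries were left out, 1 model with a mean per group was fitted to all 45037 probe sets with limma 3.58.1 in R 4.3.3 (6 residual, 3.02 prior and 9.02 total degrees of freedom), and p-values were adjusted by Benjamini-Hochberg over all of them. These p-values measure the spread between pools. With 3 arrays against 3, an exact permutation test cannot go below 0.1 and was not used. The call follows the thresholds in the methods of the study. A mean at or below 3.49 was taken as background, and a fold against a group there is a lower bound, computed with each array of that group raised to at least 3.49.

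Gene names came from the platform annotation, checked through Entrez identifiers, and probe sets with several symbols were not named. Named genes are the 10 cathepsins, direct partners, up to 4 members per list and comparison with the largest change past the test, and the 3 genes most correlated with each cathepsin. *Ctsf*, *Elane*, *Gzmb*, *Gzmk*, *Cma1*, *Atp6v0d1*, *Atp6v1h*, *H2-DMa*, *H2-DMb1*, *Ciita*, *Ccr2* and markers at background are named beside these. The cathepsins and all gene lists were chosen with earlier results of these data known. The procedure was tested on simulated data. Promoter sequences are from RefSeq (GRCm38.p6). Python 3.11.15 and matplotlib 3.10.9 drew the figures.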

Additional observations from a re-analysis of the deposited data

Results flagged for a closer look

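Expression differed between LPS 1 d and LPS 4 d for 5 cathepsins by limma's direct test of the 2 groups (adjusted p under 0.05, adjusted across every probe set, and at least 1.5-fold). The log2 change from LPS 1 d to LPS 4 d was 0.60 for *Ctsa*, 1.39 for *Ctsd*, 1.43 for *Ctsh*, 1.26 for *Ctss* and 0.66 for *Ctsz*, and for each of them all 3 arrays at 4 d were higher than all 3 at 1 d. Since there was no PBS group at 1 d, this comparison is of the LPS groups themselves. For *Ctsa*, *Ctsh*, *Ctss* and *Ctsz* it is not independent of the study's grouping, which placed them in a cluster raised rather selectively at 4 d on these arrays. No group had enough arrays for a check of single outlying arrays.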

How the results depend on the processing

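The replicate numbers did not pair the arrays: deviations of same-numbered arrays correlated at -0.03 to 0.02 (9 pairs), those of other pairs at -0.03 to 0.04 (18 pairs). With the replicate number as a block, 3 cathepsins were called at 1 d, 8 at 4 d and 5 from 1 d to 4 d, and 8 passed the F-test, as without it. Among the other genes, the block lost *Cd74* at 1 d (adjusted p = 0.0597) and *Ptprc* (adjusted p = 0.0586) and *S100a8* (adjusted p = 0.0691) between the times and gained *H2-Ab1* at 1 d (adjusted p = 0.0415). At 4 d, 5 cathepsins were called with the mean of all probe sets of a gene and 5 at a fold of at least 2, without *Ctsa*, *Ctsb* and *Ctsl* in both cases. Between the times, 3 were called at a fold of at least 2, without *Ctsa* and *Ctsz*. Leaving out each array in turn gave 3 to 4 cathepsins called at 1 d, 7 to 8 called at 4 d, 3 to 5 called between the times and 7 to 8 in the F-test. *Ctsz* between the times did not pass in ordinary tests without moderation (adjusted p = 0.0763). None of the 10 cathepsins turned from a call in one direction to the other.

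Signs turned only for changes that did not pass. From 1 d to 4 d, *M6pr* became 0.0036 with quantile normalization and *Lamp2* 0.066 with the mean of its probe sets, which also gave *Ctsf* 0.16 at 4 d. With 1 array left out, the change at 1 d ranged from -0.015 to 0.084 for *Ctsd*, from -0.096 to 0.00011 for *Glb1* and from -0.14 to 0.31 for *H2-Eb1*. At 4 d it ranged from -0.032 to 0.070 for *Ctsk*, from -0.10 to 0.0047 for *Ctso*, from -0.020 to 0.096 for *Cst3* and from -0.16 to 0.079 for *Stfa2l1*. Between the times it ranged from -0.023 to 0.19 for *Ctsc*, from -0.067 to 0.031 for *M6pr* and from -0.11 to 0.11 for *Lamp2*. The causes were not tested. With only probe sets above background, *Ctso* gave no value. The number of arrays, 3 per group, limits the precision, and levels near background limit *Ctso*, *Cst7*, *Ctla2b* and *Stfa2l1*.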
